A study of Homo sapiens with 6 samples.

Results

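Class I PI3 kinases are the enzymes that the inhibitor GDC-0941 acts on. Each is a dimer of a catalytic subunit, which adds a phosphate to the membrane lipid PIP2 to make PIP3, and a regulatory subunit, which holds the enzyme in check until a receptor recruits it. The catalytic subunits p110-alpha, p110-beta and p110-delta (genes PIK3CA, PIK3CB and PIK3CD) pair with the regulatory subunits of the p85 and p55 type (PIK3R1, PIK3R2 and PIK3R3). The catalytic subunit p110-gamma (PIK3CG) pairs with p101 (PIK3R5) and answers to G protein-coupled receptors. The delta and gamma enzymes are best known from leukocytes. PIK3IP1 is a membrane protein that binds the catalytic subunit and lowers its activity.

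Transcripts of these 9 genes were followed in T47D, a widely used luminal cell line from a human breast cancer. The 3 arrays of the GDC-0941 group came from cells given the inhibitor for 6 hours at a dose written as 1 mM, a unit in which a micro sign may have been lost. The 3 control arrays came from T47D cells whose agent is recorded as none, and whether these received the solvent is not stated. The genes were chosen by name, as the targets of the drug and their partners. All probe sets annotated to only 1 of the 9 genes were taken, which gave 18 of the 54613 probe sets and covered 7 genes. PIK3CB, PIK3CD and PIK3R3 had 2 probe sets each, and PIK3CG, PIK3R1, PIK3R5 and PIK3IP1 had 3 each. PIK3CA and PIK3R2 had no probe set under this rule, so their transcripts were not analysed here.

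Values are log2 RMA signals, and each difference is GDC-0941 minus control with its standard error (SE). A probe set was called at an adjusted p under 0.05 in limma, with Benjamini-Hochberg adjustment over all 54613 probe sets. Genes were not ranked by signal, because each probe set has its own affinity. RMA sets all arrays to a common distribution, so a shift of most transcripts at once, or a change in the RNA of a cell, would not show.

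Marker genes were read with 1 probe set a gene, the brightest, in a fit over 19775 genes, of which 27.8% were called, 12.1% higher and 15.6% lower. The control means lay between 10.30 and 14.34 over 10 luminal markers, 6.25 and 8.20 over 3 basal markers, 5.17 and 8.84 over 8 leukocyte markers, and 7.47 and 10.40 over 4 fibroblast markers. These ranges overlap in part and, across different probe sets, describe the samples without testing the cell type. Of the luminal markers FOXA1, PGR and XBP1 rose (0.53, 0.42 and 0.32) and TFF1, KRT8 and KRT18 fell (differences of -0.36, -0.23 and -0.21). Of the fibroblast markers COL1A1, a collagen chain, rose by 0.56. When each array was shifted to give its 18 hybridisation control probe sets a common mean, the 3 luminal falls were no longer called and 3 fibroblast markers were called higher. Of the 19775 genes 5688 were then called higher and 895 lower. The part of the marker genes in the results on the PI3 kinase subunits and PIK3IP1 was not tested.

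Among the 18 probe sets 3 were called, all higher, a share of 16.7%. Of all probe sets 18.8% were called in either direction and 8.88% higher. Of the 15 subunit probe sets 1 was called (6.67%), and of the 3 probe sets of PIK3IP1 2 were called (66.7%). The median difference was 0.02 over the 18 and -0.01 over all probe sets. The groups did not overlap in 6 of the 18 (33.3%) and in 34.3% of all probe sets. The shares called in either direction and without overlap lie near the background, and on these the set as a whole did not stand out. The share called higher, 16.7%, lay above the 8.88% of all probe sets but rests on 3 probe sets, 2 of them of PIK3IP1.

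**Figure D1:**
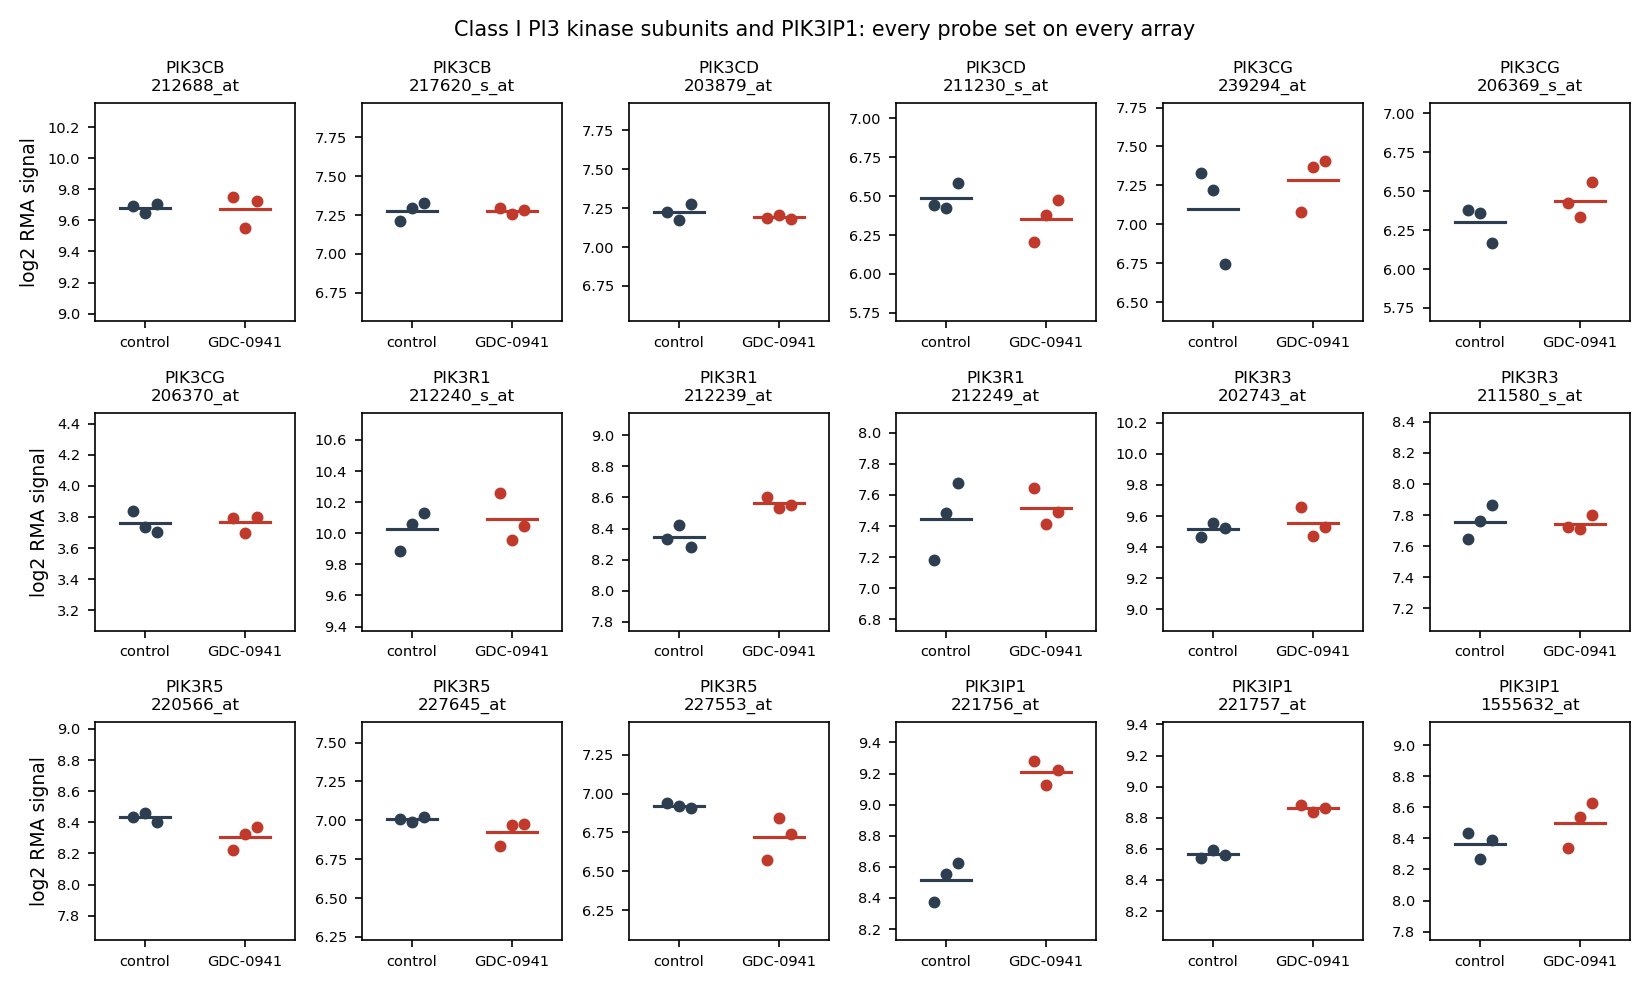
Log2 RMA signal of each of the 18 probe sets on the 3 control arrays (dark) and the 3 GDC-0941 arrays (red), with the mean of each group as a line; every panel spans the same range of log2 units, centred on its own values. The groups are fully apart in 221756_at and 221757_at of PIK3IP1, in 212239_at of PIK3R1 and, with GDC-0941 lower, in the 3 probe sets of PIK3R5.

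The sequence context of these genes was examined in RefSeq promoter windows of assembly GRCh38.p14, which run from 250 bases before to 50 bases after a transcript start. All 7 measured genes were in that table, with 20 windows. Forkhead factors of the FOXO family, which AKT keeps out of the nucleus, bind words such as GTAAACA, and a related insulin response word is CAAAACA. Both were searched on both strands. GTAAACA occurred in 1 of the 20 windows, that of PIK3IP1, and in 3.42% of all 35116 windows. CAAAACA occurred in 2 of the 20, in PIK3CD and PIK3CG, and in 4.92% of all windows. Among the chosen genes GTAAACA was not confined to PIK3IP1. The window of PIK3CA, which had no probe set, also held it, beginning 149 bases before the start. The window of PIK3R2, also without a probe set, held neither word. The 3 matches in the measured genes are shown, as the only ones of either word there, with the matched letters in capitals. Each match is the reverse complement of the word on the gene's strand. The PIK3IP1 stretch is chr22:31292455-31292483 (minus strand), the PIK3CD stretch chr1:9651494-9651522 (plus strand) and the PIK3CG stretch chr7:106865353-106865381 (plus strand).
PIK3IP1: taaagagaggcTGTTTACcagaacagcat
PIK3CD: aaaagaaaactTGTTTTGtagaagggcaa
PIK3CG: aggtttgaattTGTTTTGttttcaaaaat
The PIK3IP1 match began 16 bases after the more downstream of its 2 starts, inside the transcribed part, while the PIK3CD and PIK3CG matches began 226 and 115 bases before a start. A match describes the letters of the window and no binding was measured.

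PIK3IP1, the inhibitor of the catalytic subunit, rose. On its brightest probe set, 221756_at, the treated arrays read 9.28, 9.13 and 9.22 and the control arrays 8.37, 8.55 and 8.62. The lowest treated array was thus above the highest control. The mean was 9.21 ± 0.08 against 8.52 ± 0.13 (SD, n = 3 each). This is a rise of 0.69 ± 0.08 log2 units (SE), or 1.62-fold, with an adjusted p of 0.000109 in limma. That difference was higher than those of 99.3% of all probe sets, and 1.24% of all probe sets were called with a rise of at least 1.5-fold.

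The other probe sets of PIK3IP1 moved less. On 221757_at the treated arrays read 8.88, 8.84 and 8.86 and the controls 8.54, 8.59 and 8.56, again without overlap. The log2 difference was 0.30 ± 0.06 (SE), or 1.23-fold, with an adjusted p of 0.00363 in limma. On 1555632_at the treated arrays read 8.34, 8.54 and 8.63 and the controls 8.43, 8.26 and 8.39, so that the first treated array lay among the controls. This probe set was not called, with a difference of 0.14 ± 0.08 (SE) and an adjusted p of 0.301 in limma. PIK3IP1-DT, the divergent transcript next to the gene, has its own probe set and differed by -0.02 ± 0.10 (SE, adjusted p = 0.916).

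Whether the probe sets of a gene responded unequally was tested directly, on the difference between the brightest probe set and each other probe set of the gene on the same array. Of 11 such pairs in the 7 genes 2 were called, both in PIK3IP1, beside 12.4% of the 21316 pairs of all genes. The response of 221756_at exceeded that of 221757_at by 0.40 ± 0.08 (SE, adjusted p = 0.012 in limma) and that of 1555632_at by 0.55 ± 0.12 (SE, adjusted p = 0.0166 in limma). Both pairs share 221756_at and are not independent. The excess over 1555632_at just missed the threshold without control replicate 1 (adjusted p = 0.0508). The size of the rise of PIK3IP1 therefore depended on the probe set read, from 1.10-fold to 1.62-fold, and the mean of its 3 probe sets rose by 0.376 on the log2 scale.

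**Figure D2:**
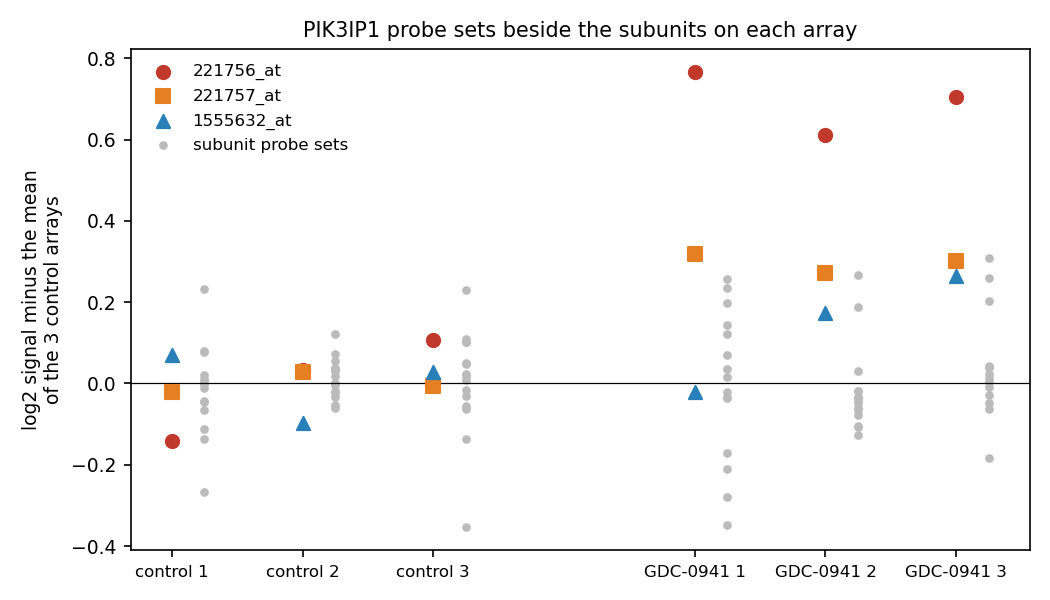
Log2 signal of the 3 PIK3IP1 probe sets on each array, relative to the mean of the 3 control arrays of the same probe set, with the 15 subunit probe sets as small grey points beside them. On every treated array 221756_at lies above all subunit probe sets, and 1555632_at reaches the height of 221757_at on none of them.

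The rise of PIK3IP1 was also compared with the responses of the subunits, array by array, on the brightest probe set of each gene. It exceeded that of PIK3CB by 0.70 ± 0.08, that of PIK3CD by 0.73 ± 0.09, that of PIK3R1 by 0.63 ± 0.07, that of PIK3R3 by 0.66 ± 0.07 and that of PIK3R5 by 0.82 ± 0.10 (SE). The adjusted p of these 5 lay between 0.000957 and 0.00119 in limma, fitted with the pairs above. The excess over PIK3CG was 0.51 ± 0.19 (SE), with a 95% interval of 0.07 to 0.94, and did not pass (adjusted p = 0.124). It passed without control replicate 3 (adjusted p = 0.0163), the array with the lowest reading of that PIK3CG probe set. These 6 comparisons were added after the values had been seen.

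The genes with the pattern most like that of PIK3IP1 were found by the root mean square difference of the 6 array values, each gene centred on its own mean and represented by its brightest probe set. Over 19774 other genes the nearest were ZNF24, a zinc finger factor (0.0215 log2 units), HNRNPA1, an RNA-binding protein of splicing (0.0386), and MAP1LC3B, the LC3 protein of autophagosomes (0.0403). Their log2 differences were 0.72, 0.65 and 0.68. Neither word occurred in the promoter windows of ZNF24 and MAP1LC3B, while HNRNPA1 was not searched.

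Of the 7 probe sets of catalytic subunits none was called in limma, and 0 had an unadjusted p under 0.05. PIK3CB encodes p110-beta, which serves both receptor tyrosine kinases and G protein-coupled receptors. On 212688_at it read 9.75, 9.55 and 9.72 with GDC-0941 and 9.69, 9.65 and 9.70 in controls. The groups overlapped, and the difference of -0.01 ± 0.07 (SE) had a 95% interval of -0.15 to 0.14. On 217620_s_at the difference was 0.00097 ± 0.060 (SE), with an interval of -0.13 to 0.13. These intervals leave room for changes up to about that size in either direction, which these 6 arrays do not resolve.

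PIK3CD encodes p110-delta, the leukocyte form. On 203879_at the treated arrays read 7.19, 7.21 and 7.18 and the controls 7.23, 7.17 and 7.28. The groups overlapped, with a difference of -0.03 ± 0.06 (SE, adjusted p = 0.773 in limma). On 211230_s_at the difference was -0.13 ± 0.08 (SE, adjusted p = 0.316), and its groups overlapped too. The antisense transcripts PIK3CD-AS1 and PIK3CD-AS2 have probe sets of their own, whose differences lay between -0.03 and 0.03.

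PIK3CG encodes p110-gamma. On 239294_at the treated arrays read 7.08, 7.37 and 7.41 and the controls 7.33, 7.22 and 6.75. The third control array was low and the others overlapped with the treated ones, which gave a difference of 0.18 ± 0.14 (SE, adjusted p = 0.43 in limma), the widest error of the 18. Without control replicate 3 the difference was 0.00783. On 206369_s_at it was 0.14 ± 0.08 (SE, adjusted p = 0.297) and on 206370_at, at a mean of 3.76 near the bottom of the scale, 0.01 ± 0.06 (SE, adjusted p = 0.972). RMA values carry no detection call, so such readings do not show that a transcript was present.

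Among the regulatory subunits PIK3R1, which encodes p85-alpha and its shorter forms, had 1 of 3 probe sets called. On 212239_at the treated arrays read 8.60, 8.53 and 8.55 and the controls 8.33, 8.42 and 8.28. All treated arrays lay above all controls, with a difference of 0.22 ± 0.06 (SE), or 1.16-fold, and an adjusted p of 0.0313 in limma. The call was lost on leaving out any array except control replicate 2 (adjusted p 0.0401 to 0.105 over the 6). On the brightest probe set, 212240_s_at, the treated arrays read 10.26, 9.96 and 10.05 and the controls 9.89, 10.06 and 10.13. These overlapped, with a difference of 0.06 ± 0.09 (SE, adjusted p = 0.702), and 212249_at gave 0.07 ± 0.11 (SE, adjusted p = 0.753). The test of the difference between 212240_s_at and 212239_at did not pass (-0.15 ± 0.09 SE, adjusted p = 0.35), so an unequal response was not shown.

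PIK3R3 encodes p55-gamma. On 202743_at it read 9.66, 9.47 and 9.53 with GDC-0941 and 9.47, 9.55 and 9.52 in controls. The groups overlapped, with a difference of 0.04 ± 0.07 (SE, adjusted p = 0.777 in limma). On 211580_s_at the difference was -0.01 ± 0.07 (SE, adjusted p = 0.934).

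PIK3R5 encodes p101, the partner of p110-gamma. All 3 of its probe sets read lower on every treated array than on any control, and none was called, with 1 at an unadjusted p under 0.05 (227553_at, 0.0185). On 220566_at the treated arrays read 8.22, 8.33 and 8.37 and the controls 8.43, 8.46 and 8.40, a difference of -0.13 ± 0.06 (SE, adjusted p = 0.212 in limma). On 227553_at they read 6.57, 6.84 and 6.74 against 6.94, 6.92 and 6.91, a difference of -0.20 ± 0.07 (SE, adjusted p = 0.083). On 227645_at the difference was -0.08 ± 0.06 (SE, adjusted p = 0.475). The first treated array was the lowest of the 6 in all 3 probe sets. Without GDC-0941 replicate 2 the probe set 227553_at passed, with a difference of -0.266 (adjusted p = 0.0346), and with array weights it did so at -0.187 (adjusted p = 0.0462). The 3 probe sets are annotated to the same gene, were read on the same arrays and are not independent. The means of 227645_at and 227553_at, 6.97 and 6.82, lay below the median of all probe sets, 7.36. Without a detection call these readings do not show that PIK3R5 RNA was present.

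**Figure D3:**
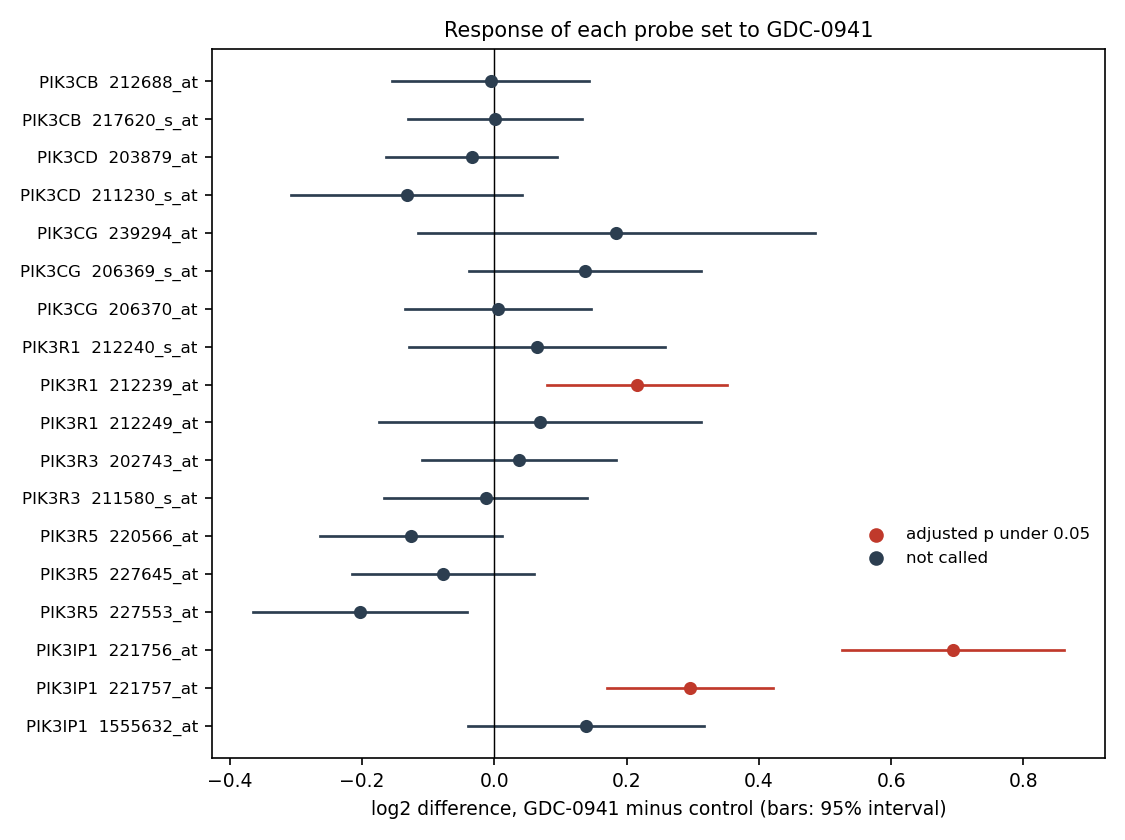
Log2 difference (GDC-0941 minus control) of each of the 18 probe sets with its 95% interval from limma; called probe sets are red. The 2 called probe sets of PIK3IP1 lie to the right of all subunit probe sets, whose differences run from -0.20 to 0.22.

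The reference on which the arrays are compared bears on the small differences. After the arrays were set to a common mean of the 18 hybridisation control probe sets, the median of all genes moved from -0.02 to 0.15 and the share of called genes that were higher from 43.7% to 86.4%. PIK3IP1 then rose by 0.863 on 221756_at, and of the 18 member probe sets 6 were called, all higher. Of all probe sets 26.2% were called under this scaling, 23.6% as higher. The 6 called members were the 3 of PIK3IP1 (1555632_at at 0.308, adjusted p = 0.0169 in limma), 212239_at of PIK3R1 and 2 of PIK3CG. The latter were 239294_at and 206369_s_at (0.354 and 0.307, adjusted p = 0.00508 and 0.0174 in limma). Under this scaling limma gave every member probe set the same SE, 0.104, and every member gene 0.0968. These adjusted p therefore do not measure the spread of each probe set, and 239294_at had an SE of 0.14 before this scaling. The differences of PIK3R5 became 0.0439, 0.0916 and -0.0333, so the direction of its first 2 probe sets (220566_at and 227645_at) turned.

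Leukocyte markers were read because PIK3CD, PIK3CG and PIK3R5 are typical of those cells. Of 8 measured, 1 was called (12.5%, beside 27.8% of all genes), the integrin ITGB2 with a difference of -0.21. That call was lost without GDC-0941 replicate 1, GDC-0941 replicate 2 or control replicate 3. It was also lost after hybridisation control centring (-0.04, adjusted p = 0.767 in limma), where 1 other marker, CD3E, was called higher. None of the 3 probe sets of ITGB2 was called in the fit over probe sets. The mean level of the 8 lay between 7.08 and 7.19 on the treated arrays and between 7.17 and 7.25 on the controls. PTPRC, which encodes the pan-leukocyte antigen CD45, had 6.17 and 6.23. All 6 samples are of the T47D line, and the origin of the PIK3R5 readings was not tested.

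Beyond the 9 genes chosen, others in phosphoinositide signalling were counted in the same fit over 19775 genes. Of all genes 27.8% were called there, and the median difference was -0.02. For the alternatives given below the background differs. After hybridisation control centring 5688 of the 19775 genes were called higher and 895 lower. The counts were 3205 and 3903 with array weights, and 2161 and 3025 with the mean of all probe sets of a gene. In the main fit 1 of the 7 class I genes and PIK3IP1 was called (PIK3IP1 itself), with a median of 0.04. Among 6 other PI3 kinases and adaptors 1 rose, with a median of -0.0025. This was PIK3C3, the class III kinase of autophagy and endosomes, by 0.39 ± 0.07 (SE, adjusted p = 0.00109 in limma). The class II kinases PIK3C2A, PIK3C2B and PIK3C2G had differences of 0.06, -0.13 and -0.05 and were not called. In the fit over probe sets 1 of the 9 probe sets of PIK3C2A was called. PIK3C2B read lower on every treated array than on any control (adjusted p = 0.1 in limma). With array weights 1 gene of this list was called lower, and likewise when only genes above the median level were kept.

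Of 10 phosphoinositide 4- and 5-kinases, which supply the substrate PIP2 and its relatives, 1 rose and 3 fell (median -0.07). PIKFYVE, which makes endosomal PI(3,5)P2, rose by 0.29, and PIP4K2C, PI4K2A and PIP5K1C had differences of -0.27, -0.20 and -0.19. PIP5K1C passed narrowly (adjusted p = 0.0497 in limma, up to 0.131 with 1 array left out). Its only probe set was not called in the fit over probe sets. After hybridisation control centring 3 rose and none fell, and with array weights 3 rose and 3 fell. The falls numbered 1 without GDC-0941 replicate 3, control replicate 1 or control replicate 3. Of 13 phosphoinositide phosphatases, which remove PIP3 or its products, 2 rose and 3 fell (median 0.11). SYNJ2 and INPP4B rose by 0.40 and 0.28, and INPP5E, INPPL1 (the SHIP2 phosphatase) and SYNJ1 had differences of -0.37, -0.32 and -0.27. After hybridisation control centring 7 rose and none fell, and with the mean of all probe sets of a gene none rose and 5 fell.

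Upstream of the enzymes the picture differed in its counts. Of 14 receptors, adaptors and RAS proteins 9 rose and 2 fell, with a median of 0.27. Led by the adaptor IRS2 (1.86 ± 0.07 SE), the receptor ERBB3 (0.97 ± 0.06 SE) and the adaptor IRS1 (0.47 ± 0.06 SE), these include the proteins whose phosphorylated tyrosines recruit p85. HRAS and RRAS, small GTPases of the RAS family, had differences of -0.42 and -0.22. The falls numbered 1 without GDC-0941 replicate 2, control replicate 2 or control replicate 3, and after hybridisation control centring.

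Downstream, of 18 PIP3 effectors 4 rose and 2 fell (median 0.05). SWAP70, a PIP3-binding regulator of RAC, rose by 0.55 and CYTH2, an exchange factor for ARF GTPases, by 0.21. PDPK1, the kinase that activates AKT, rose by 0.21 (adjusted p = 0.0432 in limma, up to 0.137 with 1 array left out). None of its 6 probe sets was called in the fit over probe sets. AKT1 and ADAP1 had differences of -0.58 and -0.19, and AKT2 differed by 0.0017 without being called. The rises numbered 1 without GDC-0941 replicate 3 and 2 without control replicate 2, and 9 after hybridisation control centring. The falls numbered 1 without GDC-0941 replicate 3, control replicate 2 or control replicate 3 and after that centring, where ADAP1 was not called (-0.02, adjusted p = 0.859 in limma). These lists were compared by their counts alone, and no difference between them was tested.

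**Figure D4:**
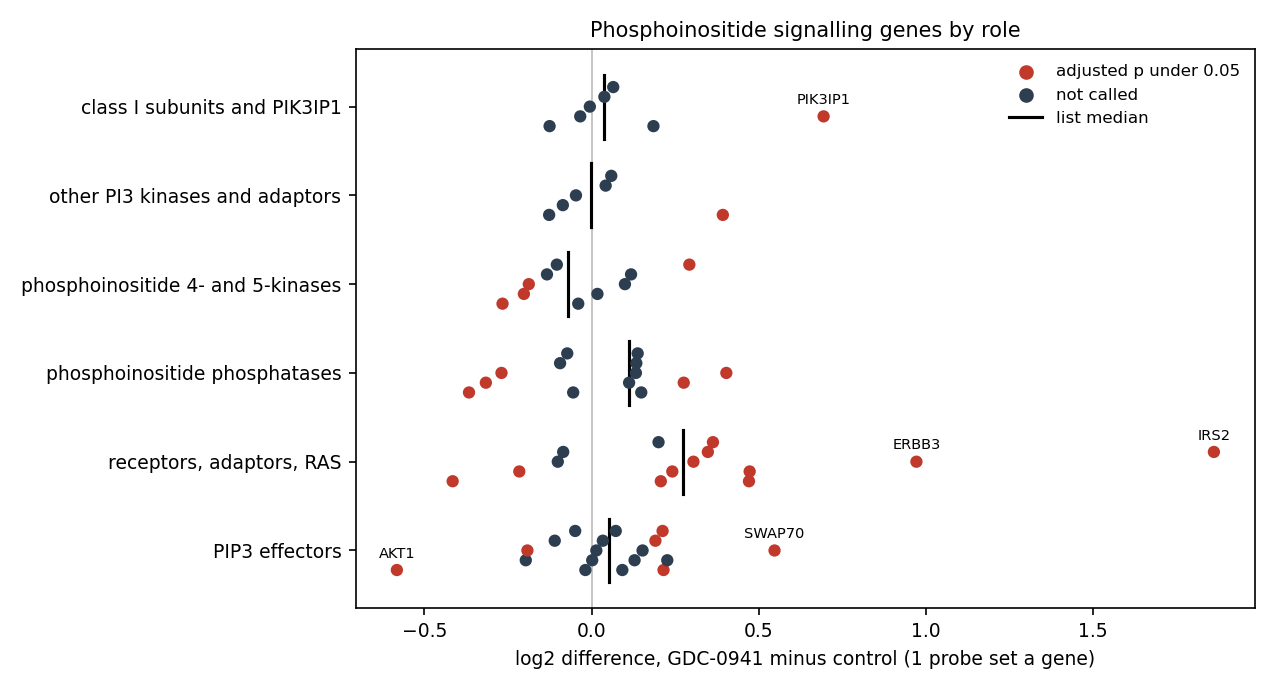
Log2 difference (GDC-0941 minus control) of each measured gene by role, 1 probe set a gene, with called genes in red and the list median as a black line. PIK3IP1 at 0.69 is the called gene of the class I row, while the row of receptors, adaptors and RAS proteins holds 9 called rises up to IRS2 at 1.86.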

How the data were processed

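RNA from 6 T47D samples was hybridised to 1 Affymetrix array each, 3 a group. The deposited values are log2 signals, a scale read from their range. The submitters' processing notes name RMA, which corrects background, normalizes between arrays and summarises each probe set. The chip definition and the version were not given in the sources used here.

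Probe sets were named from the platform annotation, with symbols updated through the Entrez identifier (RefSeq table of GRCh38.p14). The 62 manufacturer's control probe sets were left out. The two-sided test was limma 3.58.1 under R 4.3.3 (lmFit and eBayes), run over 54613 probe sets, over 19775 genes and over 21316 pairs of probe sets of a gene. Dim probe sets were kept. The fits were tested on simulated data. Promoters were searched in Python 3.11.15, and figures were drawn with matplotlib 3.10.9.

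With 3 arrays a group the median SE of a log2 difference was 0.0692. Whether replicates are separate cultures is not stated, so each p-value rests on a spread between samples that may be only technical. No pair of arrays held identical values. The genes, lists and tests were chosen with earlier results of these data known. Named genes were all 9 members, for each list the up to 3 called genes with the largest rise and fall, and the 3 genes most like a called member. Others (uncalled class II kinases, AKT2, antisense and divergent transcripts, PTPRC, CD3E) were added after their values were seen. Alternatives tried were the replicate number as a block, the 6 fits with 1 array fewer, other normalizations, variance models, weights, filters, probe set rules and a threshold of 0.01.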

Additional observations from a re-analysis of the deposited data

How the results depend on the processing

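The rise of PIK3IP1 kept its direction and its call under every alternative tried on 221756_at (0.622 to 0.863), on 221757_at (0.286 to 0.466) and with 1 probe set a gene (0.376 to 0.863). Its excess on 221756_at over each subunit except PIK3CG also stayed called at 0.05 under all 10 alternatives run. The excess over PIK3CG ran from 0.322 to 0.74. None of these alternatives changed the probe sets compared. Same-numbered arrays did not deviate together (correlations -0.344, 0.139 and -0.0274), so the numbers were not taken to pair the samples. Between differently numbered arrays of the 2 groups the correlations ran from -0.363 to 0.354. The source of these deviations was not tested. With the replicate number as a block 2 of the 18 probe sets were called. The rise of 212239_at of PIK3R1 (adjusted p = 0.0668 in limma) and the excess of 221756_at over 1555632_at of PIK3IP1 (adjusted p = 0.0516) then missed the threshold. At an adjusted p under 0.01 the called probe sets numbered 6104 (2937 higher, 3167 lower) in place of 10251, and the called pairs 981 (551 and 430) in place of 2651. Leaving out 1 array gave 1496 to 2062 called pairs, with 803 to 1210 higher and 693 to 1027 lower. After hybridisation control centring 6 member probe sets and 3 member genes were called, over all probe sets 12875 were higher and 1445 lower, and over all genes 5688 and 895. With probe sets whose names do not end in _s_at, _x_at or _a_at taken first, 2 member genes were called. These were PIK3IP1 and PIK3R1 (0.216, adjusted p = 0.0199 in limma). With array weights 1 member probe set was called lower, 227553_at of PIK3R5, and leaving out 1 array gave 0 to 1.

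The differences that changed sign were uncalled and small. After hybridisation control centring they were 0.164 for 212688_at of PIK3CB, 0.135 and 0.0377 for 203879_at and 211230_s_at of PIK3CD, 0.157 for 211580_s_at of PIK3R3, and 0.0439 and 0.0916 for 220566_at and 227645_at of PIK3R5. This setting shifts the median of all genes to 0.152, so those values lie near or below that shift. After a second quantile normalization 212688_at gave 0.0224, its pair with 217620_s_at 0.0204, and the pair 212240_s_at minus 212249_at of PIK3R1 0.0123. With array weights PIK3CB gave 0.0163 (0.0292 in the fit over genes) and 211580_s_at 0.027. Leaving out 1 array moved 212688_at from -0.0431 to 0.0558, 217620_s_at from -0.0322 to 0.0251, and 206370_at of PIK3CG from -0.0227 to 0.0444. It moved 212240_s_at of PIK3R1 from -0.0203 to 0.129, 212249_at from -0.0635 to 0.184, 202743_at of PIK3R3 from -0.0147 to 0.0791, and 211580_s_at from -0.0688 to 0.0418. Among pairs it moved 239294_at minus 206369_s_at from -0.0619 to 0.142, the pair of PIK3R3 from -0.0116 to 0.0899, 212240_s_at minus 212249_at from -0.0682 to 0.06, and the pair of PIK3CB from -0.0362 to 0.045. The cause of these changes was not tested. With 3 arrays a group the 95% intervals of the subunit differences reached 0.13 to 0.3 to either side.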
